A study of Mus musculus with 6 samples.

Results

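B cells recognise antigen through a membrane immunoglobulin whose signal is carried inward by the CD79A and CD79B chains. Kinases such as BTK and BLK and adaptors such as BLNK and BANK1 pass that signal on, and surface partners such as CR2 amplify it while CD22 and SIGLECG damp it. PAX5 and EBF1 set and hold B lineage identity. In the spleen, follicular and marginal zone B cells lie in and around the white pulp. They lie close to the dendritic cells, the antigen-presenting cells from which the RNA examined here was taken.

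The B cell genes described here are 32 genes of identity and receptor signalling, chosen by symbol for their known roles: 19 of the receptor complex and cell surface, 7 of cytoplasmic signalling and 6 transcription factors. All 32 were present among the 23420 gene symbols counted, and all 32 passed the filter on low counts that left 14388 genes for testing.

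RNA sequencing was done on freshly isolated splenic dendritic cells of C57BL/6 mice, in 3 TBK1-DKO libraries and 3 wild type (WT) libraries, so named by the labels. TBK1 is a kinase that carries signals from nucleic acid sensors to interferon regulatory factors. The labels give an age of 8 weeks in one field and 10 weeks in another, and do not spell out DKO, name an allele or Cre driver, state a treatment or describe how the cells were purified. Nor do they tie libraries to separate animals, so the p-values reflect only how much these samples vary, and that variation could be technical.

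Reads in genes numbered 45018389 to 47349648 in the TBK1-DKO libraries and 31077585 to 36145508 in the WT libraries. Libraries TBK1-DKO 2 and WT 1 stood apart within their groups: the chi-square of counts per degree of freedom was 36.1 and 36.2 between TBK1-DKO 2 and its group mates and 12.6 and 14.1 between WT 1 and its own, against 2.40 and 2.58 for the remaining pair of each group. Tbk1 itself stood at 83.9, 79.2 and 83.8 counts-per-million units (CPM) in TBK1-DKO 1, 2 and 3, against 90.7, 80.8 and 83.7 CPM in WT 1, 2 and 3. Its log2 fold change of -0.05 (SE 0.06) was not called, and reads summed over a whole gene cannot show the loss of 1 exon, so the labels remain unchecked.

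B cell transcripts were abundant in RNA labelled as that of dendritic cells. On the RPKM scale, which divides a gene's CPM by its exonic length in kilobases, Ms4a1, the CD20 gene that marks B cells, stood at 74.2 in TBK1-DKO and 82.9 in WT libraries. Of the dendritic cell markers, Itgax (CD11c) stood at 71.4 and 82.1 RPKM in TBK1-DKO and WT, Flt3, the receptor gene on which dendritic cells depend, at 24.1 and 24.0, and Zbtb46, a transcription factor gene of conventional dendritic cells, at 4.12 and 3.24. Both kinds of marker were thus present, and Ms4a1 stood above Flt3 and Zbtb46 per length in both groups. RNA in a library comes from every cell in the preparation, so fewer B cells and less of a transcript per B cell cannot be told apart.

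Per length, the 32 genes ran from Cd79a, at 433 RPKM in TBK1-DKO and 521 in WT, down to Ebf1, at 4.14 and 5.24. Cd79b came second with 388 and 427 RPKM, and Cd37, a tetraspanin gene, was the third with 118 and 136. The transcription factor genes other than Pou2af1 lay in the lower part of the order, between 4.14 and 16.5 RPKM. Fcer2a held rank 12 in TBK1-DKO and rank 9 in WT, whereas Fcrl5 held rank 26 in TBK1-DKO and rank 29 in WT.

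**Figure D1:**
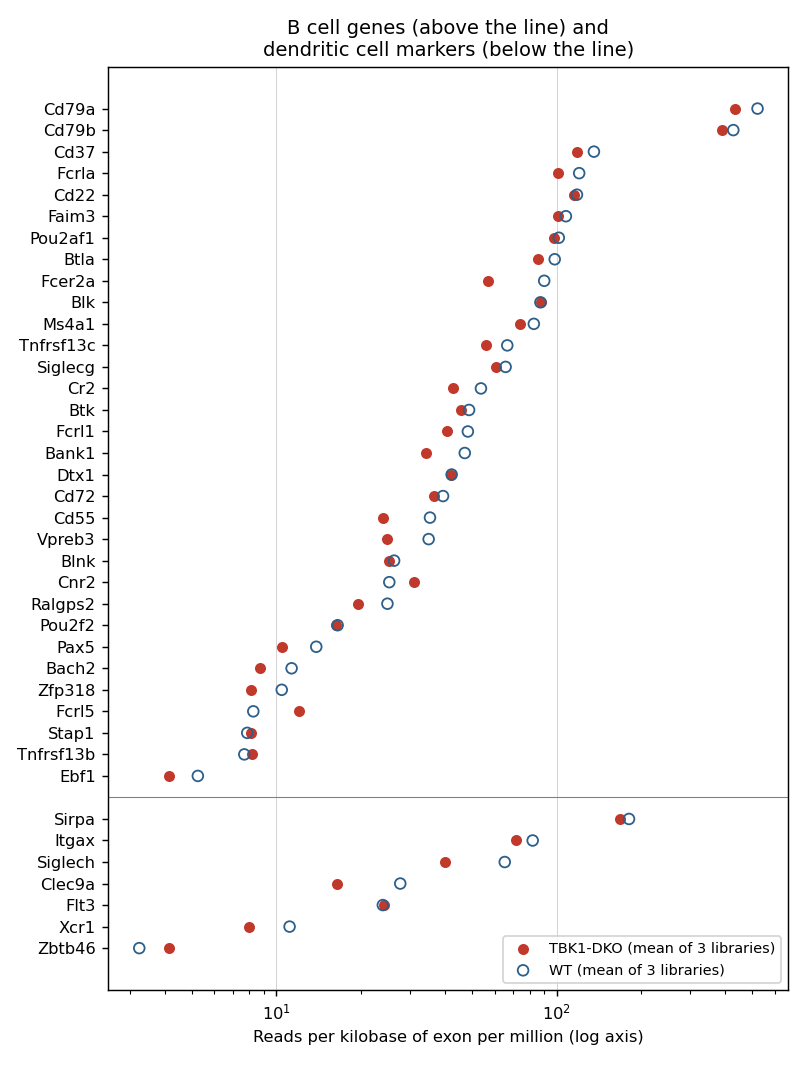
Mean level per kilobase of exon (log axis) of the 32 B cell genes and, under the line, 7 dendritic cell markers, in TBK1-DKO (filled points) and WT (open points). Cd79a and Cd79b lead at 388 to 521 RPKM, and Zbtb46 lies at 4.12 and 3.24.

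Most of the 32 genes stood slightly lower in TBK1-DKO than in WT libraries. A gene was called where its p in the edgeR quasi-likelihood test, Benjamini-Hochberg adjusted across the 14388 genes, lay under 0.05. By that rule 12 of the 32 fell (37.5%), 2 rose (6.25%) and 18 were not called. Among all tested genes 23.6% were called, 9.90% lower and 13.7% higher. The median log2 fold change of the 32 genes was -0.18, against 0.0015 over all genes. Summed over the 32 genes, the level was 6744, 6796 and 6924 CPM in TBK1-DKO 1, 2 and 3, against 7729, 7879 and 7827 CPM in WT 1, 2 and 3, so the groups did not overlap.

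The number of falls depended on the libraries used, among the 32 and over all genes. It was 19 of the 32 without TBK1-DKO 2, where 14.4% of all genes were called lower. It was 24, with 3 rises, without both TBK1-DKO 2 and WT 1, where 23.5% of all genes were called lower and 24.2% higher. With trends of each library in gene length and GC content taken out, 21 fell and 2 rose, and 15.1% of all genes were called lower. All 14 calls of the full comparison were kept in the same direction in each of these 3 fits, which all called more genes overall than it did. Without TBK1-DKO 1 or 3, 10 and 13 of the 32 fell, beside 6.83% and 7.11% of all genes. Without WT 1, 2 or 3 the falls were 11, 10 and 9, beside 8.43%, 6.62% and 7.11% of all genes. Some of the 14 calls were lost without TBK1-DKO 1 or without any 1 WT library.

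In 18 genes all 3 TBK1-DKO libraries lay below all 3 WT libraries, and in 2 they lay above. Over all genes tested 41.1% had no overlap, 19.5% below and 21.5% above. The 18 hold the 12 called falls and 6 genes that missed the threshold, namely Ms4a1, Cd37, Btla, Btk, Ebf1 and Pou2af1. In the other 12 genes the groups overlapped, and none of those was called.

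Markers of other cells moved in different directions. Beside their counts stand 9.90% of all genes called lower and 13.7% called higher. Of 12 markers of type 1 conventional dendritic cells, which cross-present antigen, 9 fell and 1 rose, with a median log2 fold change of -0.34, and their sum was 1789 to 2042 CPM in TBK1-DKO and 2223 to 2303 CPM in WT, with none at 0. Of 7 tested NK cell markers 6 fell, with a median of -0.51 and sums of 249 to 255 CPM in TBK1-DKO and 346 to 393 CPM in WT; Klra8, an eighth, was at 0 in all libraries. Red pulp macrophage markers also summed lower, to 3285.5 to 3454.5 CPM in TBK1-DKO and 5005 to 5171.8 CPM in WT. Erythroid markers summed higher, to 2612 to 2711 CPM in TBK1-DKO and 1437 to 1590 CPM in WT. Markers of type 2 conventional dendritic cells summed lower without overlap, to 1532 to 1631 CPM in TBK1-DKO and 1667 to 1707 CPM in WT. Markers shared by all conventional dendritic cells overlapped, with sums of 6660 to 7248 CPM in TBK1-DKO and 6870 to 7288 CPM in WT. The part of these cells in the B cell gene values was not tested.

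**Figure D2:**
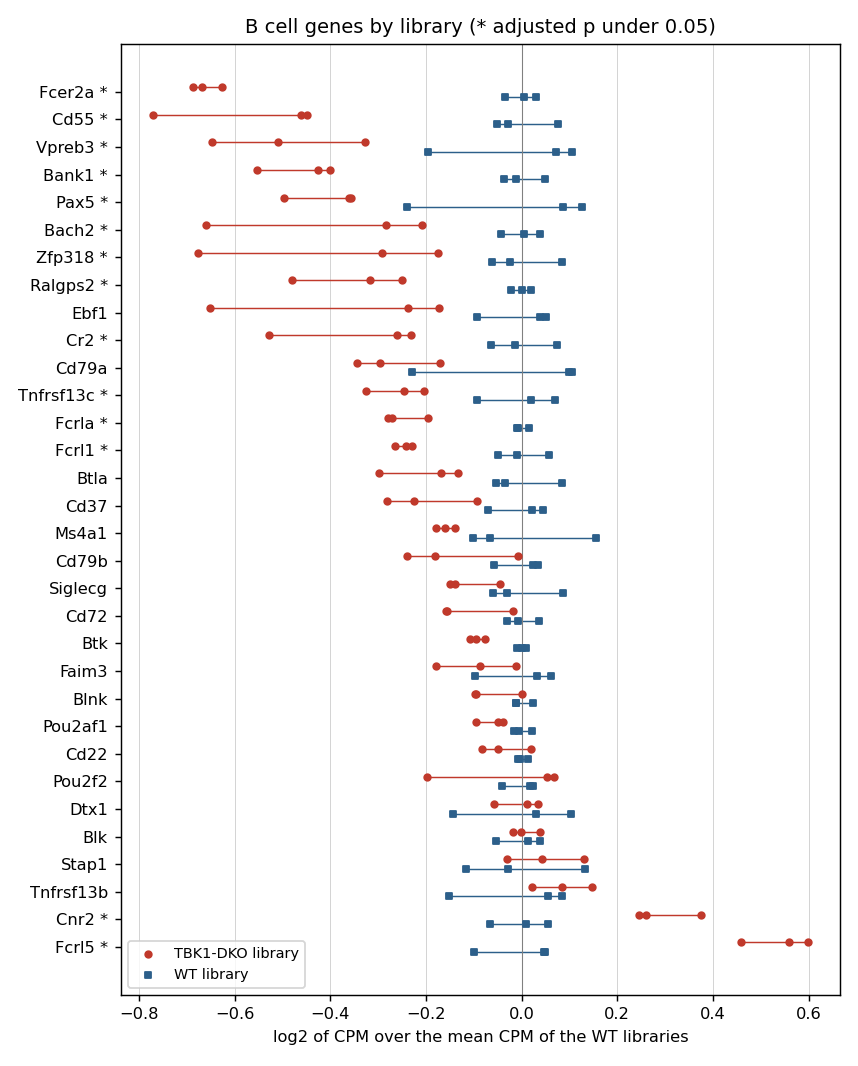
Level of each B cell gene in each library, as log2 of its CPM over the mean of the 3 WT libraries, with TBK1-DKO as circles and WT as squares. The 3 TBK1-DKO libraries lie below the WT libraries in 18 genes and above them in Fcrl5 and Cnr2; stars mark the 14 called genes.

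The genes of the antigen receptor complex were not called in the full comparison. Cd79a (chromosome 7, 24897381 to 24902197, mm10, plus strand) had 598, 674 and 618 CPM in TBK1-DKO, against 648, 814 and 817 CPM in WT (libraries 1, 2 and 3, in that order throughout). TBK1-DKO 2 lay above WT 1, so the groups overlapped, and the log2 fold change was -0.27 (SE 0.09; adjusted p = 0.066, edgeR with Benjamini-Hochberg adjustment). Cd79b (chromosome 11, 106311341 to 106314762, minus strand) had 518, 608 and 539 CPM in TBK1-DKO, against 587, 626 and 621 CPM in WT, a log2 fold change of -0.14 (SE 0.07). Within a library, the ratio of Cd79a to Cd79b was 1.14 ± 0.0248 in TBK1-DKO and 1.24 ± 0.118 in WT (SD, n = 3 each; two-sided exact permutation test, p = 0.4, and 0.4 adjusted over the 3 ratios computed). Without both TBK1-DKO 2 and WT 1, Cd79a and Cd79b were called lower, with log2 fold changes of -0.44 and -0.25. Both were also called lower without TBK1-DKO 2 (-0.34 and -0.23) and with length and GC offsets (-0.30 and -0.17). Cd79a, but not Cd79b, was called lower with DESeq2 (-0.28) and with no filter on low counts (-0.28). The same held with replicate number as a block (-0.26) and without WT 1 (-0.37). Neither gene was called in the other fits.

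The pan-B cell marker Ms4a1 was not called in the full comparison. It was called lower without both TBK1-DKO 2 and WT 1 (-0.08), where 23.5% of all genes were called lower. It stood at 459, 453 and 466 CPM in TBK1-DKO, against 571, 489.6 and 478 CPM in WT. The TBK1-DKO libraries lay close together under all WT libraries, of which WT 1 was well above the other two. The log2 fold change of -0.16 had a 95% interval of -0.33 to 0.01 (adjusted p = 0.16, edgeR with Benjamini-Hochberg adjustment).

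Fcer2a, which encodes the low-affinity IgE receptor CD23 of follicular B cells, had the largest fall of the 32 with all 6 libraries. It stood at 173, 181 and 175 CPM in TBK1-DKO, against 272, 285 and 280.1 CPM in WT. The libraries of each group lay close together and far from those of the other. The log2 fold change was -0.66 (SE 0.05, 95% interval -0.78 to -0.54; adjusted p = 1.8e-05, edgeR with Benjamini-Hochberg adjustment). The gene lies on chromosome 8, 3681737 to 3694175, minus strand.

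Cr2, whose product CD21 binds complement fragments and is highest on marginal zone B cells, fell by less. It had 363, 302 and 371 CPM in TBK1-DKO, against 458, 431 and 417 CPM in WT, with TBK1-DKO 2 the lowest library. The log2 fold change was -0.33 (SE 0.08; adjusted p = 0.015, edgeR with Benjamini-Hochberg adjustment), and the call was lost without WT 1 (adjusted p = 0.052). The ratio of Fcer2a to Cr2 was 0.516 ± 0.0716 in TBK1-DKO and 0.642 ± 0.0422 in WT (SD, n = 3 each; two-sided exact permutation test, p = 0.2, adjusted 0.3), and these groups overlapped through TBK1-DKO 2.

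Follicular dendritic cells, stromal cells of the B cell follicle, also transcribe Cr2 and Fcer2a. Of 8 tested markers of those cells, 4 rose (2 without WT 2) and 1 fell. Of all genes 13.7% were called higher (9.1% without WT 2) and 9.90% lower. The summed level of the markers was 74.2 to 82.7 CPM in TBK1-DKO and 59.0 to 66.5 CPM in WT, with none of them at 0. The part of those cells in the falls of Cr2 and Fcer2a was not tested.

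Cd55, which encodes a brake on complement found on many blood cells, fell by 0.55 on the log2 scale (SE 0.09). It stood at 124, 100.4 and 125 CPM in TBK1-DKO, against 181, 165 and 168 CPM in WT, again with TBK1-DKO 2 lowest and no overlap. Its neighbour Faim3 lies 402.9 kb away on chromosome 1 and encodes the IgM Fc receptor. Faim3 had 165, 186 and 176 CPM in TBK1-DKO, against 175, 192 and 195 CPM in WT, a log2 fold change of -0.09 (SE 0.07) without a call.

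The Fc receptor-like genes went in different directions. Fcrl1 and Fcrl5 lie next to each other on chromosome 3 on the plus strand, at 87376387 to 87402934 and 87435773 to 87500678, with 32.8 kb between them. Fcrl1, which encodes an activating co-receptor of B cells, had 145, 146 and 143 CPM in TBK1-DKO, against 179, 170.4 and 166 CPM in WT. It fell by 0.25 on the log2 scale (SE 0.05; adjusted p = 0.0084, edgeR with Benjamini-Hochberg adjustment).

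Fcrl5, which encodes a receptor with inhibitory signalling motifs found on marginal zone and B-1 cells in mice, had 43.5, 39.5 and 42.4 CPM in TBK1-DKO, against 29.7, 29.7 and 26.8 CPM in WT. It had the largest rise of the 32 genes, 0.54 on the log2 scale (SE 0.07, 95% interval 0.39 to 0.69; adjusted p = 0.00031, edgeR with Benjamini-Hochberg adjustment). The ratio of Fcrl5 to Fcrl1 was 0.300, 0.270 and 0.297 in the TBK1-DKO libraries, against 0.167, 0.174 and 0.162 in the WT libraries. The groups did not overlap (two-sided exact permutation test, p = 0.1, the smallest that 3 against 3 libraries allow, and 0.3 after Benjamini-Hochberg adjustment over the 3 ratios). All TBK1-DKO libraries already lay above WT in Fcrl5 and below WT in Fcrl1. The ratio could therefore not overlap, and its test adds nothing to the values of the 2 genes. Fcrla, an intracellular family member gene on chromosome 1 at 170917576 to 170927583, fell by 0.25 (SE 0.05), with 173, 183 and 174 CPM in TBK1-DKO, against 212, 209 and 209 CPM in WT.

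Cnr2, the gene of the cannabinoid receptor CB2 that helps to place marginal zone B cells, was the only other gene of the 32 called higher in the full comparison. It stood at 120.5, 119 and 131 CPM in TBK1-DKO, against 96.1, 101 and 105 CPM in WT. The log2 fold change was 0.29 (SE 0.06; adjusted p = 0.006, edgeR with Benjamini-Hochberg adjustment). The gene lies on chromosome 4, 135895394 to 135920207, plus strand.

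Vpreb3, which encodes a protein that binds the immunoglobulin light chain early in assembly, fell by 0.49 (SE 0.10). It was at 19.1, 23.9 and 21.1 CPM in TBK1-DKO, against 26.2, 31.5 and 32.3 CPM in WT. Tnfrsf13c and Tnfrsf13b encode the BAFF receptor, which keeps mature B cells alive, and its relative TACI. Tnfrsf13c fell, with 109, 119 and 115 CPM in TBK1-DKO, against 128, 138 and 143 CPM in WT (log2 fold change -0.26, SE 0.06); the call was lost without TBK1-DKO 1, WT 2 or WT 3 (adjusted p = 0.059 to 0.074, edgeR with Benjamini-Hochberg adjustment). Tnfrsf13b had 23.1, 22.1 and 24.1 CPM in TBK1-DKO, against 19.6, 22.6 and 23.1 CPM in WT, and was not called (0.08, SE 0.08).

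Besides Fcrl5, the inhibitory receptor genes Cd22, Siglecg, Cd72 and Btla showed small differences, none of them called in the full comparison. Cd22 had 576, 562 and 603 CPM in TBK1-DKO, against 601, 594 and 592 CPM in WT, a log2 fold change of -0.04 (95% interval -0.17 to 0.09). Siglecg (-0.11), which encodes another sialic acid-binding brake, Cd72 (-0.11), a lectin-like inhibitor, Btla (-0.20), a ligand-binding inhibitor shared with T cells and dendritic cells, and Cd37 (-0.20) stood lower without a call. Of these, Btla and Cd37 had adjusted p = 0.055 and 0.059 (edgeR with Benjamini-Hochberg adjustment). Without TBK1-DKO 2, with length and GC offsets and without both TBK1-DKO 2 and WT 1, Siglecg, Cd72, Btla and Cd37 were each called lower. Btla and Cd37 were called lower also with upper-quartile scaling, the replicate block and DESeq2. Btla was called lower with RLE scaling, no filter on low counts and a minimum count of 50, and Cd37 without WT 1. Among the 19 surface genes there were 7 falls, 2 rises and 10 without a call, beside 9.90% of all genes called lower and 13.7% higher. The falls numbered 13 without TBK1-DKO 2 and 15 without both TBK1-DKO 2 and WT 1. In those fits 14.4% and 23.5% of all genes were called lower.

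The promoters of 5 genes are shown: that of Fcer2a for its fall, those of the neighbours Fcrl1 and Fcrl5 for their opposite directions, and those of Cnr2 and Vpreb3 for a motif they hold in nearly the same place. Each window, from RefSeq on build GRCm38.p6, runs 5′ to 3′ on the gene's strand, 250 bases before and 50 after the start, with matches to a searched motif in capitals. The windows are chr8:3694125-3694424 (minus strand) for Fcer2a, chr3:87376137-87376436 (plus) for Fcrl1, chr3:87435532-87435831 (plus) for Fcrl5, chr4:135894939-135895238 (plus) for Cnr2 and chr10:75948050-75948349 (plus) for Vpreb3. They are set on RefSeq starts, which can differ from the ends of the GENCODE genes given above: the Cnr2 start is 135895189, before the annotated gene, and the Vpreb3 start is 75948300, inside a gene annotated from 75943057 to 75949657.
Fcer2a: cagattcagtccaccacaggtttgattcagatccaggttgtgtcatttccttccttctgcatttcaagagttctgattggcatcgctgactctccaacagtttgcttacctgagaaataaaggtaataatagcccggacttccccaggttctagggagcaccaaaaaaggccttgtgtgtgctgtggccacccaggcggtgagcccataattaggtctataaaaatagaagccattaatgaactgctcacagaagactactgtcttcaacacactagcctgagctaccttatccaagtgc
Fcrl1: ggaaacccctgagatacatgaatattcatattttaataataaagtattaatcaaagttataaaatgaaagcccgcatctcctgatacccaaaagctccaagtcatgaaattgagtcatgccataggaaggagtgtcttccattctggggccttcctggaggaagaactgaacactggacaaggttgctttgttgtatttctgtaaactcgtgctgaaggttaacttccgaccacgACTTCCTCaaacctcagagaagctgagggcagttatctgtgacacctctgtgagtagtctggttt
Fcrl5: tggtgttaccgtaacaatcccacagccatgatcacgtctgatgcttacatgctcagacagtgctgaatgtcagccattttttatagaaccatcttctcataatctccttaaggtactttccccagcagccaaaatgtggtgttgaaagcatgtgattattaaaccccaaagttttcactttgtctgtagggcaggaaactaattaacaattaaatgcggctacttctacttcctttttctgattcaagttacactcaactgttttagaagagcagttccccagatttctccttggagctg
Cnr2: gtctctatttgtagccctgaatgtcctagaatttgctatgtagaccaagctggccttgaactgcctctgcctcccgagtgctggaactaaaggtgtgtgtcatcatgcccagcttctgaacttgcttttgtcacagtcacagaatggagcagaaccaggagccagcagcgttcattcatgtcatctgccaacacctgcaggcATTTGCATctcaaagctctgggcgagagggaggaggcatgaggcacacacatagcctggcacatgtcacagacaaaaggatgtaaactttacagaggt
Vpreb3: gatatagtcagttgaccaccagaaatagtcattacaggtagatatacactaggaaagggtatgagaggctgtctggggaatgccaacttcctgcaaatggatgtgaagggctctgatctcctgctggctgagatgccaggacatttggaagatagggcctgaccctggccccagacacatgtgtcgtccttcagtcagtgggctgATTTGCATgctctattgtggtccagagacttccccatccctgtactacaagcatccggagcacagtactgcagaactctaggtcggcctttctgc

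Motifs were searched on both strands in the promoters of the 28 genes that had one, and no match overlapped another. The octamer ATGCAAAT, bound by POU2F2 with its co-activator POU2AF1, was found in 3 genes, Blnk, Cnr2 and Vpreb3, and in 1.74% of all 32851 promoter windows. It began 48 bases before that RefSeq start in Cnr2, which rose, and 45 bases before it in Vpreb3, which fell. The PU.1 and ETS motif GAGGAAGT was found in Btla, Cd37, Cd72 and Fcrl1, against 3.20% of all windows. The EBF1 palindrome, TCCC and GGGA with any 2 bases between, was found in Cd22 alone (0.904% of all windows), the RBPJ motif GTGGGAA in Cr2 and Ebf1 (6.38%), the interferon response motif, GAAA repeated after any 2 bases, in Ebf1 and Fcrla (3.44%), and the NF-kB motif, GGGA and TTCC with any 2 bases between, in none of the 28 (1.47%). A match says that these letters are present, not that a factor binds there.

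In the cytoplasmic signalling group, 2 of 7 genes fell and 5 were not called, beside 9.90% of all genes called lower. Bank1, whose scaffold protein links the receptor to calcium release, had 267, 239.8 and 262 CPM in TBK1-DKO, against 364, 349 and 343 CPM in WT. It fell by 0.46 on the log2 scale (SE 0.06; adjusted p = 4.4e-04, edgeR with Benjamini-Hochberg adjustment), with no overlap between groups. Ralgps2, a gene for an exchange factor of Ral GTPases, fell by 0.35 (SE 0.07), with 241, 215 and 253 CPM in TBK1-DKO, against 305, 301 and 296 CPM in WT.

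The kinase genes were close to equal. Btk had 145, 142 and 144 CPM in TBK1-DKO, against 154, 153 and 152 CPM in WT (log2 fold change -0.09, 95% interval -0.21 to 0.02). Blk, a Src family kinase gene, had 233, 242 and 236 CPM in TBK1-DKO, against 228, 243 and 238 CPM in WT (0.01, interval -0.12 to 0.13). Neither was called, and the sign for Blk turned with RLE or upper-quartile scaling (-0.0015 and -0.0159).

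The adaptor gene Blnk (-0.06), Stap1 (0.05), which encodes an adaptor phosphorylated downstream of the receptor, and Dtx1 (-0.0038), a Notch-regulated gene high in marginal zone B cells, were also not called. Btk, Cd37, Cd55 and Btla are transcribed in other cells of the spleen as well. Without both TBK1-DKO 2 and WT 1, 5 of the 7 signalling genes fell and Stap1 was called higher, by 0.11. In that fit 23.5% of all genes were called lower and 24.2% higher.

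Of the 6 transcription factors, 3 fell and 3 were not called, beside 9.90% of all genes called lower. Pax5, the guardian of B cell identity, had 95.9, 87.0 and 95.6 CPM in TBK1-DKO, against 104, 130.2 and 134 CPM in WT. It fell by 0.40 on the log2 scale (SE 0.09; adjusted p = 0.01, edgeR with Benjamini-Hochberg adjustment), and WT 1 was the lowest WT library. Bach2, a repressor that holds off plasma cell fate, had 92.4, 71.2 and 97.4 CPM in TBK1-DKO, against 113, 109 and 116 CPM in WT (log2 fold change -0.37, SE 0.10). Zfp318, which is needed for the IgD transcript, had 118, 90.1 and 128 CPM in TBK1-DKO, against 153, 138 and 142 CPM in WT (-0.37, SE 0.11).

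In Bach2 and Zfp318, TBK1-DKO 2 lay far under TBK1-DKO 1 and 3. The Bach2 call was lost without WT 1 or WT 3 (adjusted p = 0.087 and 0.066), and the Zfp318 call without TBK1-DKO 1 or any WT library (adjusted p = 0.06 to 0.155, edgeR with Benjamini-Hochberg adjustment). Leaving out WT 1 or WT 3 left 1 fall among the 6 factors, where 8.43% and 7.11% of all genes were called lower. Ebf1 had 43.4, 32.5 and 45.3 CPM in TBK1-DKO, against 47.9, 52.9 and 52.5 CPM in WT. It just missed the threshold (-0.34, SE 0.11, adjusted p = 0.051, edgeR with Benjamini-Hochberg adjustment). Ebf1 was called lower with RLE or upper-quartile scaling, no filter on low counts, the replicate block, DESeq2, or length and GC offsets. The same held without TBK1-DKO 2, without TBK1-DKO 3 and without both TBK1-DKO 2 and WT 1. In each of these fits 4 of the 6 factors fell, beside 7.11 to 23.5% of all genes called lower.

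Pou2af1 and Pou2f2, which encode the octamer co-activator and its partner OCT2, were at nearly the same level in both groups. Pou2af1 had 253, 243 and 251 CPM in TBK1-DKO, against 257, 263 and 258 CPM in WT (log2 fold change -0.06, 95% interval -0.18 to 0.06). Pou2f2 had 141, 119 and 143 CPM in TBK1-DKO, against 132, 138 and 138 CPM in WT (-0.02, interval -0.19 to 0.15). Neither was called, and leaving out TBK1-DKO 2 turned the sign of Pou2f2 (0.04).

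T cells also transcribe Bach2 and Btla. Of 12 T cell markers 8 fell and 1 rose (none without TBK1-DKO 1, TBK1-DKO 3, WT 2 or WT 3). Of all genes 9.90% were called lower and 13.7% higher, the latter 9.1 to 10.6% in those fits. The sum of the markers was 348 to 361 CPM in TBK1-DKO and 429 to 440 CPM in WT, with none at 0. The part of T cells in these values was not tested.

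The larger median difference of long genes was nearly gone without TBK1-DKO 2 and WT 1. Across 14263 genes, the deviation of TBK1-DKO 2 from its group went with exonic length (Spearman rho -0.502), and that of WT 1 with GC content (-0.498). The 13 of the 32 genes with at least 5000 exonic bases, Bach2, Zfp318, Ebf1 and Pax5 among them, had a median log2 fold change of -0.33, against -0.14 for the other 19. Without TBK1-DKO 2 the medians were -0.23 and -0.18, with length and GC offsets -0.30 and -0.17, and without both TBK1-DKO 2 and WT 1 -0.20 and -0.19.

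**Figure D3:**
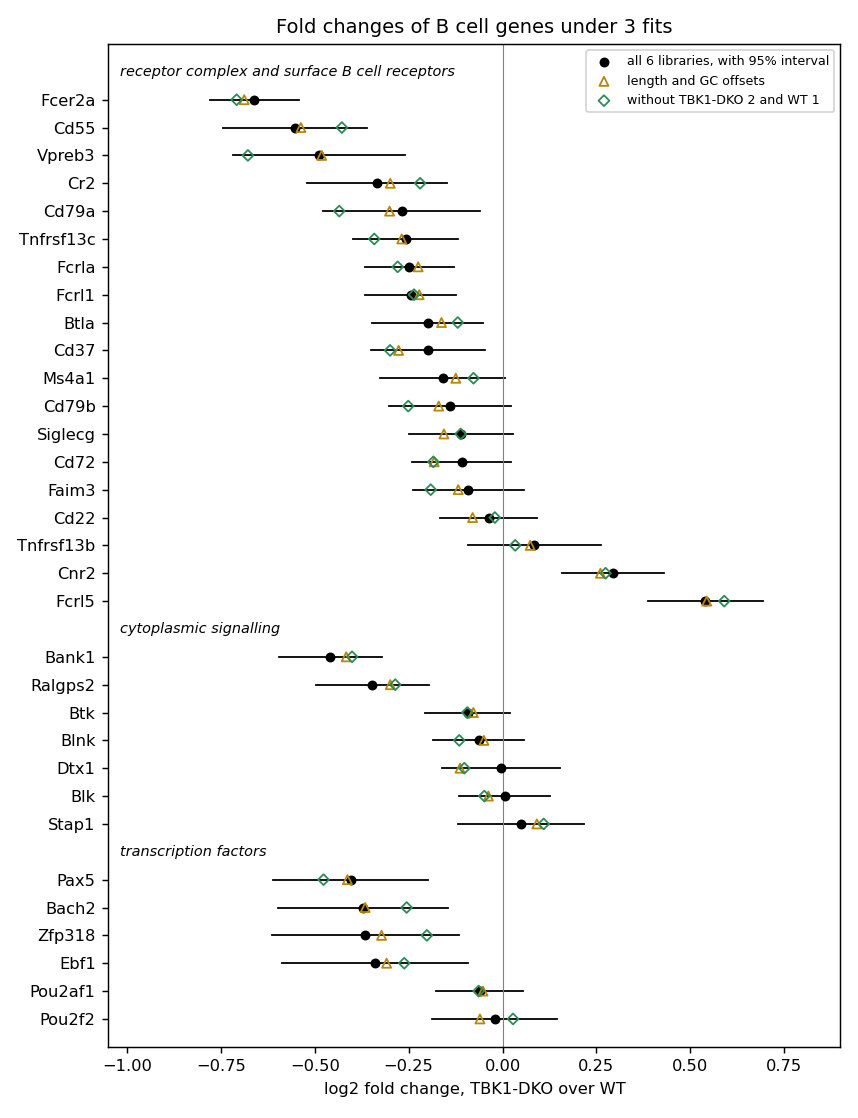
Log2 fold change, TBK1-DKO over WT, of each B cell gene in 3 fits: all 6 libraries with the 95% interval (black), with length and GC offsets (triangles), and without TBK1-DKO 2 and WT 1 (diamonds). Fcer2a lies lowest at -0.66 and Fcrl5 highest at 0.54, and the 14 genes called with all libraries keep their side of 0 in all 3 fits.

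Of 33 other B cell receptor signalling genes tested, 5 fell and 28 were not called, with a median log2 fold change of -0.07, beside 9.90% lower over all genes. Cd81, a tetraspanin gene, had 163, 180.5 and 164 CPM in TBK1-DKO, against 217, 242 and 234 CPM in WT, and fell by 0.45 (SE 0.07). Cd38, an ectoenzyme gene, fell by 0.27 (SE 0.05), and Lck, a kinase gene chiefly of T cells, by 0.29 (SE 0.06). The core kinase and lipase genes Syk (-0.02), Lyn (-0.12) and Plcg2 (0.06) were not called. The falls numbered 10 without TBK1-DKO 2, 8 with upper-quartile scaling, 12 with length and GC offsets, and 15, with 3 rises, without both TBK1-DKO 2 and WT 1, while the lower share of all genes was 14.4%, 11.3%, 15.1% and 23.5% in those fits, in that order.

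Among 19 other transcription factors of the lineage, 7 fell and 2 rose, with a median of -0.12, beside 9.90% lower and 13.7% higher over all genes. Ets1, which restrains plasma cell differentiation, had 480.2, 425 and 488 CPM in TBK1-DKO, against 645, 638 and 648 CPM in WT, and fell by 0.47 (SE 0.07). Foxo1 fell by 0.33 (SE 0.06) and Lef1 by 0.41 (SE 0.07), whereas Relb, a subunit of the non-canonical NF-kB pathway, rose by 0.58 (SE 0.08). The falls numbered 4 without WT 2, where 6.62% of all genes were called lower. Without both TBK1-DKO 2 and WT 1 there were 11 falls and 5 rises. In that fit 23.5% of all genes were called lower and 24.2% higher.

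Other surface and positioning genes of mature B cells moved both ways, 7 up and 5 down of 22, with a median of 0.05. Among all genes 13.7% were called higher and 9.90% lower. Cxcr5, which draws cells to follicles, had 121, 119 and 119 CPM in TBK1-DKO, against 66.5, 77.1 and 74.2 CPM in WT, a rise of 0.72 (SE 0.06). Cd83, an activation marker gene, rose by 0.47 (SE 0.06). Cd69, an early activation gene, fell by 0.82 (SE 0.06), with 32.6, 34.3 and 33.2 CPM in TBK1-DKO, against 61.0, 57.2 and 58.5 CPM in WT, and Cd86 fell by 0.45 (SE 0.05). Dendritic cells and T cells transcribe several of these genes too. The rises numbered 4 without WT 2 or WT 3, where 9.1% and 9.76% of all genes were called higher. The falls numbered 3 without WT 2 and 11 without both TBK1-DKO 2 and WT 1, beside 6.62% and 23.5% of all genes.

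Lists of B cell subsets and stages were read in the same way. Of 10 marginal zone genes outside the 32, 2 rose, Cd9 by 0.22 (SE 0.06) and Pdia4 by 0.19 (SE 0.06), and 8 were not called. Over all genes 13.7% were called higher and 9.90% lower. Neither rise was called without TBK1-DKO 1, WT 2 or WT 3. With upper-quartile scaling, no low-count filter or without TBK1-DKO 3 there was 1 rise, beside 12.6%, 10.2% and 10.6% of all genes. Without TBK1-DKO 2 or WT 1 there were 2 rises and 1 fall, where 14.4% and 8.43% of all genes were called lower. With length and GC offsets there were 3 rises and 1 fall, beside 16.8% and 15.1% of all genes. Without both TBK1-DKO 2 and WT 1 there were 3 and 2, beside 24.2% and 23.5%. Of 10 genes of B-1 cells, an innate-like B cell type, 4 rose and 1, Zcwpw1, fell. None fell without TBK1-DKO 3, where 7.11% of all genes were called lower. Bhlhe41, a transcription factor gene of B-1 cells, had 28.3, 28.1 and 29.0 CPM in TBK1-DKO, against 19.2, 16.9 and 19.3 CPM in WT (0.63, SE 0.07), and Zbtb32 rose by 0.52 (SE 0.09). Plscr1 and Itgam also rose, by 0.36 and 0.37; Itgam is high in neutrophils as well, whose 8 markers all rose and summed to 5648 to 6517 CPM in TBK1-DKO and 2328 to 2609 CPM in WT. Their part in the Itgam value was not tested, and Cd5, the classical B-1 surface marker gene that T cells share, was not called (-0.0057).

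Most germinal centre and plasma cell genes rose, whereas 13.7% of all genes were called higher and 9.90% lower. Of 10 germinal centre genes 7 rose and 1, Gcsam, which is also a marker on the type 1 dendritic cell list, fell, with a median of 0.70. S1pr2, which confines B cells to germinal centres, had 11.7, 11.8 and 10.8 CPM in TBK1-DKO, against 5.63, 6.27 and 6.99 CPM in WT, a rise of 0.86 (SE 0.10). Mef2b rose by 0.79 (SE 0.13) and Fas, which other cells also transcribe, by 0.69 (SE 0.07), whereas Bcl6 was not called (0.16).

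Of 11 tested plasma cell genes 10 rose and Slamf7, shared with dendritic and NK cells, fell, with a median of 0.70. The Slamf7 call was lost with limma-voom and without TBK1-DKO 1, TBK1-DKO 3, WT 1 or WT 2. In those fits 6.62 to 9.84% of all genes were called lower. Derl3, an endoplasmic reticulum gene, had 31.1, 34.0 and 32.1 CPM in TBK1-DKO, against 14.2, 15.7 and 15.1 CPM in WT (1.11, SE 0.07). Sdc1, the CD138 gene, rose by 0.74 (SE 0.07), and Igj, the J chain gene, had 1473, 1624 and 1469 CPM in TBK1-DKO, against 1013, 927 and 880.3 CPM in WT (0.70, SE 0.08). Of 13 immunoglobulin genes looked for, only Igj was among the gene symbols counted, so Ig heavy and light chain constant genes could not be read.

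Of 10 tested B cell progenitor genes 4 rose and 2 fell, among them Erg (1.39, SE 0.17), which other blood progenitors share, and Dntt, the terminal transferase gene of early lymphocytes (-0.76, SE 0.11). Over all genes 13.7% were called higher and 9.90% lower. There were 2 rises without TBK1-DKO 1, TBK1-DKO 3 or WT 1, beside 10.5%, 10.6% and 12.2% of all genes called higher. There was 1 rise without WT 2 or WT 3, beside 9.1% and 9.76%. There was 1 fall without TBK1-DKO 1 or WT 1, beside 6.83% and 8.43% called lower. In the fits without TBK1-DKO 3 or any 1 WT library, 11 of the progenitor genes were tested. Calls in these lists follow the same rule as for the 32.

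**Figure D4:**
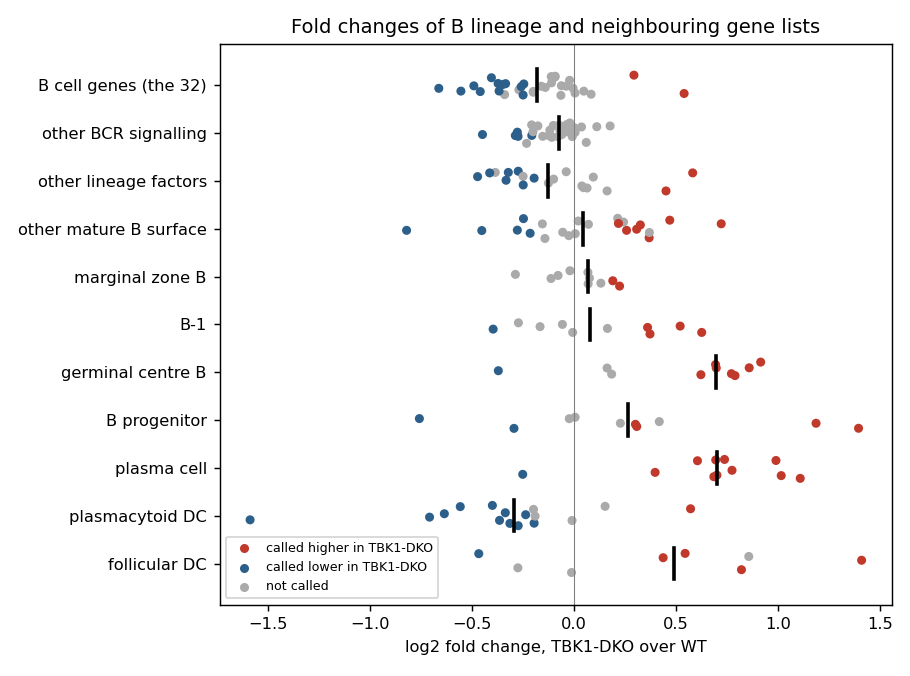
Log2 fold change, TBK1-DKO over WT, of every tested gene in each list, without the 32 in the other lists; red is called higher, blue called lower, grey not called, and the black bar is the list median. The bar lies at -0.18 for the 32 B cell genes and at 0.70 for germinal centre and plasma cell genes.

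Plasmacytoid dendritic cells, a dendritic cell type with a partly lymphoid programme, share Spib, Tcf4 and other factors with B cells. Of 16 of their markers 11 fell (7 without TBK1-DKO 1 or WT 2) and 1 rose (2 without both TBK1-DKO 2 and WT 1), with a median of -0.29. Of all genes 9.90% were called lower (6.83% and 6.62% without TBK1-DKO 1 or WT 2) and 13.7% higher (24.2% without both libraries). The sum of the markers was 1679 to 1725 CPM in TBK1-DKO and 1982 to 2017 CPM in WT, with none at 0. The defining marker of these cells, Siglech, fell by 0.71 (SE 0.06), at 135 ± 0.251 CPM in TBK1-DKO and 221 ± 15.5 CPM in WT (SD, n = 3 each). Their part in the B cell gene values was not tested.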

How the data were processed

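RNA of splenic dendritic cells was sequenced in 3 TBK1-DKO and 3 WT libraries. The authors deposited raw read counts for each gene symbol, as whole numbers. The submitters' processing notes name mm10 as build and list HTSeq, TopHat, TopHat2 and DESeq2 as tools. Neither tool versions nor whether counting used strand were given. In the GENCODE annotation, exons of 7 of the 32 genes overlap another gene (Cd22, Cd72, Cd37, Cd55, Pax5, Bach2 and Pou2f2). The shared stretch runs from 13 bases in Cd37 to 1423 in Cd72. The other gene lies on the opposite strand, except for Pou2f2, which shares 35 bases with a gene on its own strand. How reads in the shared bases were counted is not known. Summary rows naming no gene held 8.20 to 10.7% of records and were left out.

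Counts were fitted with edgeR 4.0.16 in R 4.3.3 (filterByExpr, minimum count 10; TMM factors; robust quasi-likelihood F test, no covariates), with Benjamini-Hochberg adjustment over all 14388 genes and a threshold of 0.05. Levels are CPM scaled by TMM; SE came from the F statistic. Positions and exonic lengths were taken from the GENCODE M21 annotation of GRCm38, which is mm10, and there all 32 genes were found, Faim3 as Fcmr. The test was checked on simulated counts. Alternatives were DESeq2 1.42.0, limma-voom (limma 3.58.1), other scaling and filters, a replicate block, each library left out, and, added after the data were seen, length and GC offsets (known for 99.1% of the genes tested) and a fit without TBK1-DKO 2 and WT 1. The genes, gene lists and named genes (all 32, and up to 4 others of each list of B cell genes with the smallest p) were chosen with earlier results of these data known. Genes given beyond that rule (Syk, Lyn, Plcg2, Bcl6, Cd5, Slamf7, Zcwpw1, Gcsam and the dendritic cell markers) were chosen after their values were seen, and the text gives part of those named by it. Some genes that the rule names are not reported here.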

Additional observations from a re-analysis of the deposited data

How the results depend on the processing

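The count of falls among the 32 genes was 9 to 19 with 1 library left out, 12 to 16 with other scaling, filters or tools or the replicate block, 21 with length and GC offsets and 24 without both TBK1-DKO 2 and WT 1; the rises were 2 in each case but the last, with 3. The calls over all genes were 2308 to 4352 with 1 library left out, 4586 with offsets and 6897 without both of those libraries, against 3402. Of the 14 called genes, 10 kept direction and call under all 16 alternatives (Fcer2a, Fcrl1, Fcrl5, Fcrla, Vpreb3, Cnr2, Cd55, Bank1, Ralgps2 and Pax5); the other 4 lost theirs only when a library was left out. The log2 fold change of Blk changed sign with RLE factors (-0.0015), upper-quartile factors (-0.0159), no filter (-0.0073), DESeq2 (-7e-04), length and GC offsets (-0.0377), without both libraries (-0.0486) and in 3 of the fits with 1 library left out (range over the 6, -0.0327 to 0.0191). With 1 library left out, Stap1 ranged from -0.0206 to 0.1192, Dtx1 from -0.0709 to 0.0352 and Pou2f2 from -0.0667 to 0.0381, the last also 0.0279 without both libraries. None of these 4 was called in the full comparison. Dtx1 was called lower with length and GC offsets (-0.1132) and without both libraries (-0.1018), and Stap1 higher without both libraries (0.1096). The causes were not tested.

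The replicate block gave 16 falls and 2 rises among the 32 genes and 4086 calls over all genes. The deviations of same-numbered libraries correlated at 0.182, 0.149 and -0.065, and those of libraries with unlike numbers at -0.22 to 0.121. So few libraries cannot decide whether same-numbered ones pair. The labels state no pairing, and the block was left out of the main fit. With the block, 9 of the 33 other receptor signalling genes fell, beside 12.3% of all genes called lower. The 95% intervals of the 32 genes reached 0.11 (Btk) to 0.25 (Zfp318) to each side on the log2 scale.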
